A study of Mus musculus with 6 samples.

Results

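The 39 genes described here are transporters and enzymes of the renal proximal tubule, together with a scaffold protein and a transcription factor of the same cells. They were taken by symbol from a deposited expression table of 33679 genes, in which each of the 39 had 1 entry. Kidneys of mice were sequenced after unilateral ureteral obstruction, a ligation of 1 ureter that dams urine back into the kidney and injures it. The labels name 3 samples of genotype Cd248 KO, which lack the fibroblast and pericyte glycoprotein endosialin, and 3 of genotype Wild type, and both groups had the obstruction. The table has values for 4 of these libraries, namely knockout replicate 1 and the 3 wild type replicates. The other 2 knockout samples were not analysed here. The labels and protocols used here state no age, strain, sex or duration of obstruction, no unobstructed control and no cell type to which the deletion was limited. The protocol speaks of pooled RNA, and nothing in it says that replicates are separate animals, so p-values measure the spread between libraries, which may be technical.

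The proximal tubule takes back most of the glucose, phosphate, amino acids, bicarbonate and small proteins that the glomerulus filters. It secretes organic anions, makes glucose and burns fatty acids to drive this work. Its brush-border carriers use the sodium gradient, and its endocytic receptors return filtered proteins to the cell. The nuclear receptor Hnf4a maintains the expression of many of these genes. Proximal tubule cells lose much of this program when they are injured, and ureteral obstruction is a common way of injuring them.

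Hnf4a, a known regulator of such genes, is itself a member, so promoters were searched for short HNF4A elements. RefSeq promoters (GRCm38.p6, from 250 bases before to 50 bases after the start) were found for 34 of the 39 members. Those of Slc3a1 and Pdzk1 are shown because they hold the element, that of Slc22a6 because its levels spread widely between libraries, and that of Slc7a8 because its levels were nearly flat. Capitals mark CAAAGTCCA, an HNF4A element, on either strand.
Slc3a1, chr17:85028097-85028396, plus strand: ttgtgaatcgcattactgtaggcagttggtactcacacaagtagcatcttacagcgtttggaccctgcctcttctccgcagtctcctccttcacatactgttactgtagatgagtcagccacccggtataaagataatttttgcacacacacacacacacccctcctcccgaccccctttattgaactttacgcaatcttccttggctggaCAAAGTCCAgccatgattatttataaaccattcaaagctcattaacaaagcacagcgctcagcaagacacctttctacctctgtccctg
Pdzk1, chr3:96829815-96830114, plus strand: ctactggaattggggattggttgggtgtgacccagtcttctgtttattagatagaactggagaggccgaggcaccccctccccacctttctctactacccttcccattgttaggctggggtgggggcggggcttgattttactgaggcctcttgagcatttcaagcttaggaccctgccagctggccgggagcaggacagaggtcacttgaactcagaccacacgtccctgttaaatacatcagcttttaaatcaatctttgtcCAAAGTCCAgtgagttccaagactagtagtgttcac
Slc22a6, chr19:8617746-8618045, plus strand: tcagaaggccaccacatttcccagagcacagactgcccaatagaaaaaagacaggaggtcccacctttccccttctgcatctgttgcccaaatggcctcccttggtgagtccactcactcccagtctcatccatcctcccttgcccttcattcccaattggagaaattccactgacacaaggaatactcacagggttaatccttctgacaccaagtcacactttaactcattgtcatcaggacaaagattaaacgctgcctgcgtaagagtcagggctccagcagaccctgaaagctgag
Slc7a8, chr14:54781837-54782136, minus strand: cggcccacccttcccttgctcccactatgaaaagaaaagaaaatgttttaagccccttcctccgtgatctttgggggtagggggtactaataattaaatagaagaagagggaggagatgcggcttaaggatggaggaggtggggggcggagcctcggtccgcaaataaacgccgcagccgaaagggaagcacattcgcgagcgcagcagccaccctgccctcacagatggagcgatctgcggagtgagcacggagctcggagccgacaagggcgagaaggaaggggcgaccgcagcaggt

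CAAAGTCCA or its reverse complement stood in a promoter of 2 of the 34 members (5.88%), Pdzk1 and Slc3a1, against 0.555% of all 27025 genes with a promoter in the table. Counted over promoters, since a gene can have several, it stood in 2 of 46 member promoters and in 0.475% of all 32851. The match in Slc3a1 begins 39 bases before the start, and that in Pdzk1 lies after the start of 1 of its promoters. The variants CAAAGTTCA and CAAAGGTCA were found in 0 members (0.448% and 0.544% of all genes). These matches describe the letters only, and the elements were chosen after the member values were seen. Whether they bear on the levels was not tested. Slc22a6 and Slc7a8, both without one, were picked for their spread between libraries. Spread was not compared between members with and without the element.

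Values are FPKM, fragment numbers corrected for the length of the transcript and the size of the library, as the authors deposited them, so genes can be compared per length. Read depth is unknown, because the table holds no counts. FPKM summed to between 267394 and 304426 over the 4 libraries, with 14535 to 14820 genes of at least 1 FPKM in each. Cd248 itself was listed at 0 in the knockout library and lay between 8.78 and 9.57 FPKM in wild type. Of all FPKM, immunoglobulin genes took 5.98% in the knockout library and at most 0.202% in wild type. The Y-linked gene Ddx3y was at 14.5 to 17.2 FPKM and Xist at no more than 0.05 FPKM in all 4 libraries. All 39 members were detected in every library, and all passed the filter of a mean of at least 0.5 FPKM, also in wild type alone.

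Wild type replicate 1 held the lowest level of all 39 members among the wild type libraries, and replicate 3 held the highest of 36. Over the 16871 tested genes, replicate 1 was lowest for 24.2% and replicate 3 highest for 22.3%. The 3 exceptions were Slc5a1, Slc22a13 and Slc7a8, whose highest wild type value was in replicate 2. The members' summed FPKM was 1538 in wild type replicate 1, 3880 in replicate 2, 5817 in replicate 3 and 4817 in the knockout library. Kap carried most of that sum, and without Kap the sums were 532, 1060, 1524 and 1364 FPKM. The knockout library thus lay between wild type replicates 2 and 3 on both sums. Replicate 3 exceeded replicate 1 by at least 1 on the log2(FPKM + 1) scale for 25 of 39 members, against 1.46% of tested genes. The median of that difference was 1.25 over the members and -0.08 over all tested genes. After the libraries were brought to an equal FPKM total, with or without immunoglobulin genes, replicate 1 was lowest for 38 of 39, Slc7a8 being the exception, and the median difference was 1.16. In bulk tissue, fewer proximal tubule cells and less of these RNAs per cell cannot be told apart.

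**Figure D1:**
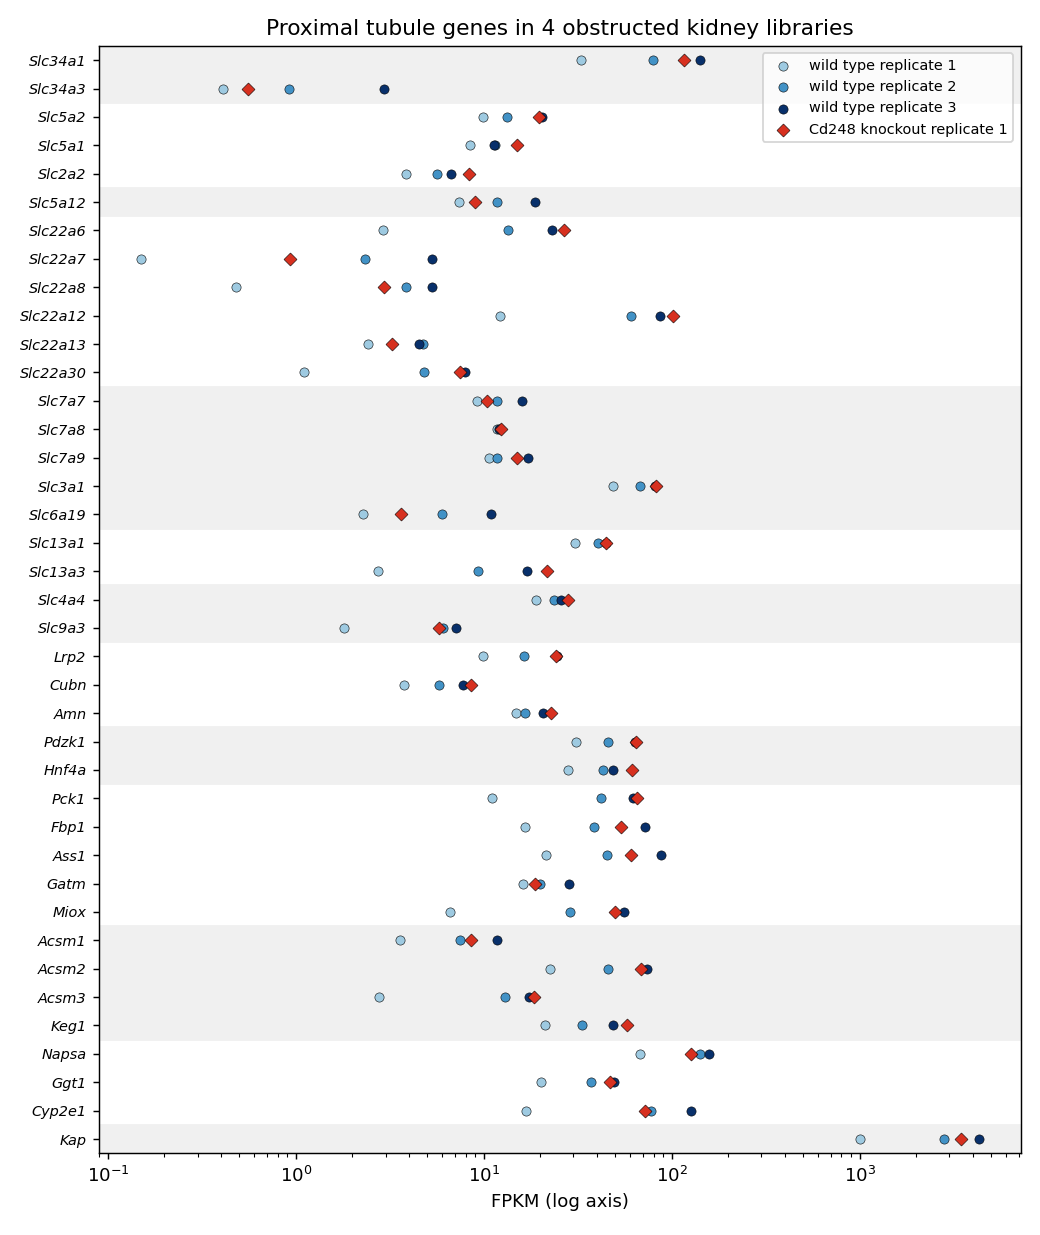
FPKM of each member (rows, shaded by role) on a log axis, 1 point per library: 3 wild type replicates in blue shades and the knockout library as red diamonds. Wild type replicate 1 is leftmost of the blue points in every row, Kap is the most abundant member, and Slc7a8 has nearly the same value in all 4 libraries.

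No member was called different between the knockout library and the wild type libraries. By limma, 0 of 39 members were higher and 0 lower at an adjusted p under 0.05, where 0.640% of tested genes were called higher and 0.0830% lower. Of the 108 genes called higher, 98 were immunoglobulin genes. Members with an unadjusted limma p under 0.05 also numbered 0, where 10.8% of tested genes had one. The adjusted p of the members lay between 0.483 and 0.967. An exact permutation test of 1 library against 3 cannot go below p = 0.25, so no such test of a single member could pass. The knockout value minus the wild type mean was positive for 32 members and negative for 7, with a median of 0.47 on the log2(FPKM + 1) scale against -0.01 for all tested genes. That median was 0.13 without wild type replicate 1, 0.53 without replicate 2 and 0.73 without replicate 3. The difference of single members moved by over 1.5 times or changed sign for 36 of 39 without replicate 1, 5 without replicate 2 and 23 without replicate 3. Scaling to an equal FPKM total moved the median of all genes from -0.01 to -0.11 and that of the members to 0.34.

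Set against single wild type libraries, the knockout library was above replicate 1 for 39 of 39 members, above replicate 2 for 28 and above replicate 3 for 16. Over tested genes these shares were 40.8%, 49.5% and 54.3%. The median member difference was 1.06 from replicate 1, 0.36 from replicate 2 and -0.09 from replicate 3. The 16 members above replicate 3 were above every wild type library, where 28.0% of tested genes were. None of the 39 was below every wild type library, where 31.2% of tested genes were. Replicate 1 was the lowest wild type library for all 39 members, against 24.2% of tested genes. The counts above replicate 1 and below every library therefore rest on the low level of replicate 1. Without wild type replicate 3 the count above all was 28, and without replicate 1 it was 16 with 11 below both others. After scaling to an equal total or quantile normalization the count above all was 11.

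**Figure D2:**
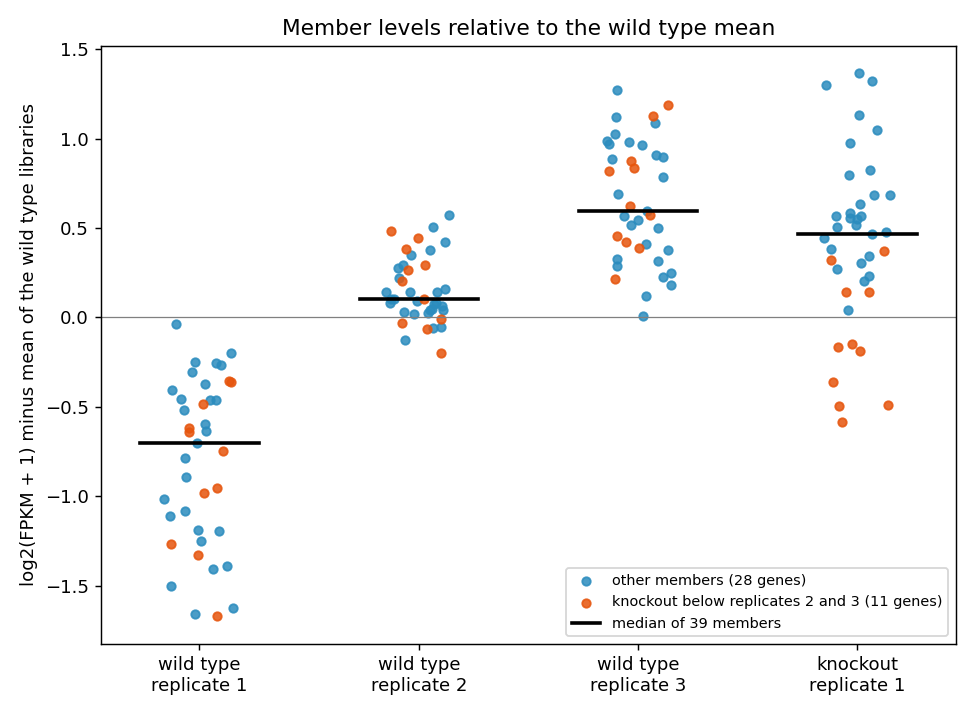
Level of each member in each library, as log2(FPKM + 1) minus the mean of the 3 wild type libraries, with black bars at the medians (-0.70, 0.10 and 0.60 in wild type replicates 1, 2 and 3, and 0.47 in the knockout library). Orange points are the 11 members whose knockout value lay below both wild type replicates 2 and 3, a group picked by these values.

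Both phosphate carriers had knockout values inside the wild type range. Slc34a1 (NaPi-IIa; chromosome 13, 55398187 to 55415592, plus strand), the main phosphate carrier of the brush border, was at 32.8, 79.8 and 142 FPKM in wild type (always given here as replicates 1, 2 and 3) and at 116 FPKM in the knockout library. Its difference on the log2(FPKM + 1) scale was 0.68 (SE 0.83, adjusted p = 0.800), and 0.13 without wild type replicate 1 or 1.17 without replicate 3. Slc34a3 (NaPi-IIc), a second phosphate carrier, was at 0.41, 0.92 and 2.93 FPKM in wild type and at 0.56 FPKM in the knockout library. Its knockout value was 0.19 times that of wild type replicate 3, and the ratio for Slc34a1 was 0.82. The genes were not tested against each other, and Slc34a3 was among the members with the lowest levels.

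Among glucose transporters, 2 of 3 had their highest value in the knockout library. Slc5a1 (SGLT1; chromosome 5, 33104219 to 33162870, plus strand), which recovers the last filtered glucose in the late proximal tubule, was at 8.41, 11.5 and 11.3 FPKM in wild type and at 15.0 FPKM in the knockout library. It had the smallest adjusted p of all members, 0.483 by limma, with a difference of 0.50 (SE 0.20, 95% interval -0.03 to 1.03). Slc2a2 (GLUT2), the basolateral exit for glucose, was at 3.86, 5.66 and 6.68 FPKM in wild type and at 8.31 FPKM in the knockout library. Slc5a2 (SGLT2), the high-capacity carrier of the early proximal tubule, was at 9.87, 13.3 and 20.4 FPKM in wild type and at 19.6 FPKM in the knockout library, inside the wild type range. Slc5a12, a sodium-coupled lactate carrier, was at 7.34, 11.7 and 18.7 FPKM in wild type and at 8.94 FPKM in the knockout library, below replicates 2 and 3.

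The organic anion and urate carriers of the SLC22 family spread widely between wild type libraries. Slc22a6 (OAT1; chromosome 19, 8618039 to 8628299, plus strand), which takes up organic anions from the blood side, was at 2.91, 13.4 and 23.0 FPKM in wild type and at 26.7 FPKM in the knockout library. The knockout value was 9.16 times replicate 1 but 1.16 times replicate 3, and the difference of 1.32 had an interval of -1.55 to 4.19 (adjusted p = 0.702). Slc22a12 (URAT1), the urate exchanger, was at 12.2, 60.7 and 87.1 FPKM in wild type and at 101 FPKM in the knockout library. These 2 genes were above every wild type library, and the other 4 of the family were not. Slc22a8 (OAT3), the neighbour of Slc22a6 on chromosome 19 (8591254 to 8611835), was at 0.48, 3.84 and 5.29 FPKM in wild type and at 2.93 FPKM in the knockout library. Slc22a7 (OAT2) was at 0.15, 2.33 and 5.31 FPKM in wild type and at 0.93 FPKM in the knockout library. Replicate 3 had 35.4 times the value of replicate 1, the widest ratio of any member. That ratio rests on 0.15 FPKM, the lowest value of any member. On the log2(FPKM + 1) scale the difference was 2.46, less than the 2.90 of Miox. Slc22a13, another urate carrier, was at 2.41, 4.74 and 4.53 FPKM in wild type and at 3.25 FPKM in the knockout library. Slc22a30 was at 1.10, 4.80 and 7.99 FPKM in wild type and at 7.47 FPKM in the knockout library, and it has close relatives in the genome that may share its reads, which makes its values uncertain.

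Amino acid carriers included the member with the smallest spread. Slc7a8 (LAT2), a basolateral exchanger of neutral amino acids that is also made by other cells, was at 11.7, 12.3 and 12.1 FPKM in wild type and at 12.4 FPKM in the knockout library. Its difference of 0.04 had the narrowest interval of the 39 members (-0.18 to 0.26) and its sign turned at an equal FPKM total (-0.09). Slc3a1 (rBAT), the heavy chain of the cystine carrier, was at 48.5, 68.2 and 81.1 FPKM in wild type and at 82.2 FPKM in the knockout library. Slc7a9, its light chain, was at 10.7, 11.8 and 17.1 FPKM in wild type and at 15.1 FPKM in the knockout library. The 2 chains of this carrier thus had knockout values near that of wild type replicate 3, 1.01 times it for Slc3a1 and 0.88 times for Slc7a9. Slc7a7, the y+LAT1 exchanger of cationic amino acids, was at 9.16, 11.7 and 15.99 FPKM in wild type and at 10.4 FPKM in the knockout library. Slc6a19 (B0AT1), the brush-border carrier of neutral amino acids, was at 2.28, 5.98 and 10.9 FPKM in wild type and at 3.62 FPKM in the knockout library, 0.33 times replicate 3.

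Both SLC13 carriers had their highest FPKM in the knockout library, Slc13a1 at only 1.01 times replicate 3. That margin of Slc13a1 is smaller than the one between the FPKM totals of these libraries (304426 against 285322). It does not hold at an equal total. Slc13a3 (NaDC3; chromosome 2, 165405028 to 165473230, minus strand), which carries dicarboxylates into the cell from the blood side, was at 2.72, 9.30 and 17.0 FPKM in wild type and at 21.8 FPKM in the knockout library. Its difference of 1.37 was the most positive of the 39 members with all libraries and was not past the threshold (SE 0.91, interval -1.09 to 3.82, adjusted p = 0.655). It was 0.74 without wild type replicate 1, 1.48 without replicate 2, where that of Slc22a12 was 1.59, and 1.88 without replicate 3. Slc13a1 (NaS1), the sulfate carrier, was at 30.7, 40.3 and 44.7 FPKM in wild type and at 45.0 FPKM in the knockout library, a value almost equal to replicate 3. Slc4a4 (NBCe1), the basolateral bicarbonate exit, was at 18.9, 23.7 and 25.8 FPKM in wild type and at 28.1 FPKM in the knockout library. Slc9a3 (NHE3), the apical sodium-proton exchanger, was at 1.81, 6.09 and 7.08 FPKM in wild type and at 5.81 FPKM in the knockout library, so the 2 steps of bicarbonate recovery held different places against the wild type range.

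The receptors of protein endocytosis had knockout values near those of wild type replicate 3. Lrp2 (megalin), the large receptor for filtered proteins, was at 9.91, 16.4 and 24.6 FPKM in wild type and at 24.2 FPKM in the knockout library. Cubn (cubilin), its partner, was at 3.76, 5.79 and 7.73 FPKM in wild type and at 8.60 FPKM in the knockout library. Amn (amnionless), which brings cubilin to the surface, was at 14.8, 16.5 and 20.6 FPKM in wild type and at 22.7 FPKM in the knockout library. All 3 had a knockout value within 0.98 to 1.11 times that of wild type replicate 3, and replicate 3 had 1.39 to 2.49 times the value of replicate 1. Pdzk1, which anchors carriers in the brush border, was at 31.0, 45.6 and 63.9 FPKM in wild type and 64.7 FPKM in the knockout library. Hnf4a (chromosome 2, 163506808 to 163572910, plus strand), the nuclear receptor that maintains the proximal tubule program, was at 28.1, 43.1 and 48.9 FPKM in wild type and at 61.2 FPKM in the knockout library. The Hnf4a difference was 0.64 (SE 0.33, interval -0.25 to 1.53, adjusted p = 0.572), with the knockout value above all 3 wild type libraries.

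Enzymes of glucose and amino acid metabolism had wide spreads between wild type libraries. The narrowest was that of Gatm, with an SD of log2(FPKM + 1) of 0.40 against a median of 0.11 over tested genes. Pck1, the entry enzyme of gluconeogenesis, was at 11.1, 41.9 and 62.3 FPKM in wild type and at 65.1 FPKM in the knockout library. Fbp1, a later step of the same pathway, was at 16.5, 38.7 and 71.9 FPKM in wild type and at 53.4 FPKM in the knockout library. Ass1, which makes argininosuccinate on the way to arginine, was at 21.3, 45.4 and 87.4 FPKM in wild type and at 60.5 FPKM in the knockout library. Only Pck1 of these 3 had its highest FPKM in the knockout library, at 1.05 times replicate 3. That margin is smaller than the one between the FPKM totals of these libraries (304426 against 285322), so it does not hold at an equal total. Miox (chromosome 15, 89334398 to 89337015, plus strand), which breaks down inositol, was at 6.58, 28.8 and 55.6 FPKM in wild type and at 50.2 FPKM in the knockout library, with replicate 3 at 8.44 times replicate 1. Gatm, the first enzyme of creatine synthesis, was at 16.1, 20.0 and 28.5 FPKM in wild type and at 18.8 FPKM in the knockout library, 1 of the 7 members with a negative difference (-0.15).

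The acyl-CoA synthetases Acsm1, Acsm2 and Acsm3, which activate medium-chain acids, lie next to each other on chromosome 7 and are similar in sequence, so shared reads are possible. Acsm2 was at 22.5, 45.8 and 74.0 FPKM in wild type and at 69.0 FPKM in the knockout library. Acsm3 was at 2.77, 13.0 and 17.3 FPKM in wild type and at 18.5 FPKM in the knockout library. Acsm1 was at 3.58, 7.43 and 11.7 FPKM in wild type and at 8.53 FPKM in the knockout library, and of the cluster only Acsm3 lay above replicate 3. Keg1, a kidney gene of the glycine acyltransferase family, was at 21.3, 33.5 and 48.9 FPKM in wild type and at 57.7 FPKM in the knockout library. Napsa, an aspartic peptidase of kidney and lung, was at 67.7, 141 and 157 FPKM in wild type and at 127 FPKM in the knockout library. Ggt1, the brush-border enzyme that degrades glutathione, was at 20.1, 37.3 and 49.2 FPKM in wild type and at 46.8 FPKM in the knockout library. Cyp2e1, a cytochrome P450, was at 16.7, 78.0 and 127 FPKM in wild type and at 71.9 FPKM in the knockout library, with the highest wild type SD of any member on the log2 scale (1.49). Kap (chromosome 6, 133849851 to 133853762, minus strand), an androgen-regulated protein of the proximal tubule, was at 1006, 2819.9 and 4294 FPKM in wild type and at 3453 FPKM in the knockout library. Its knockout value lay between replicates 2 and 3 (adjusted p = 0.837).

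**Figure D3:**
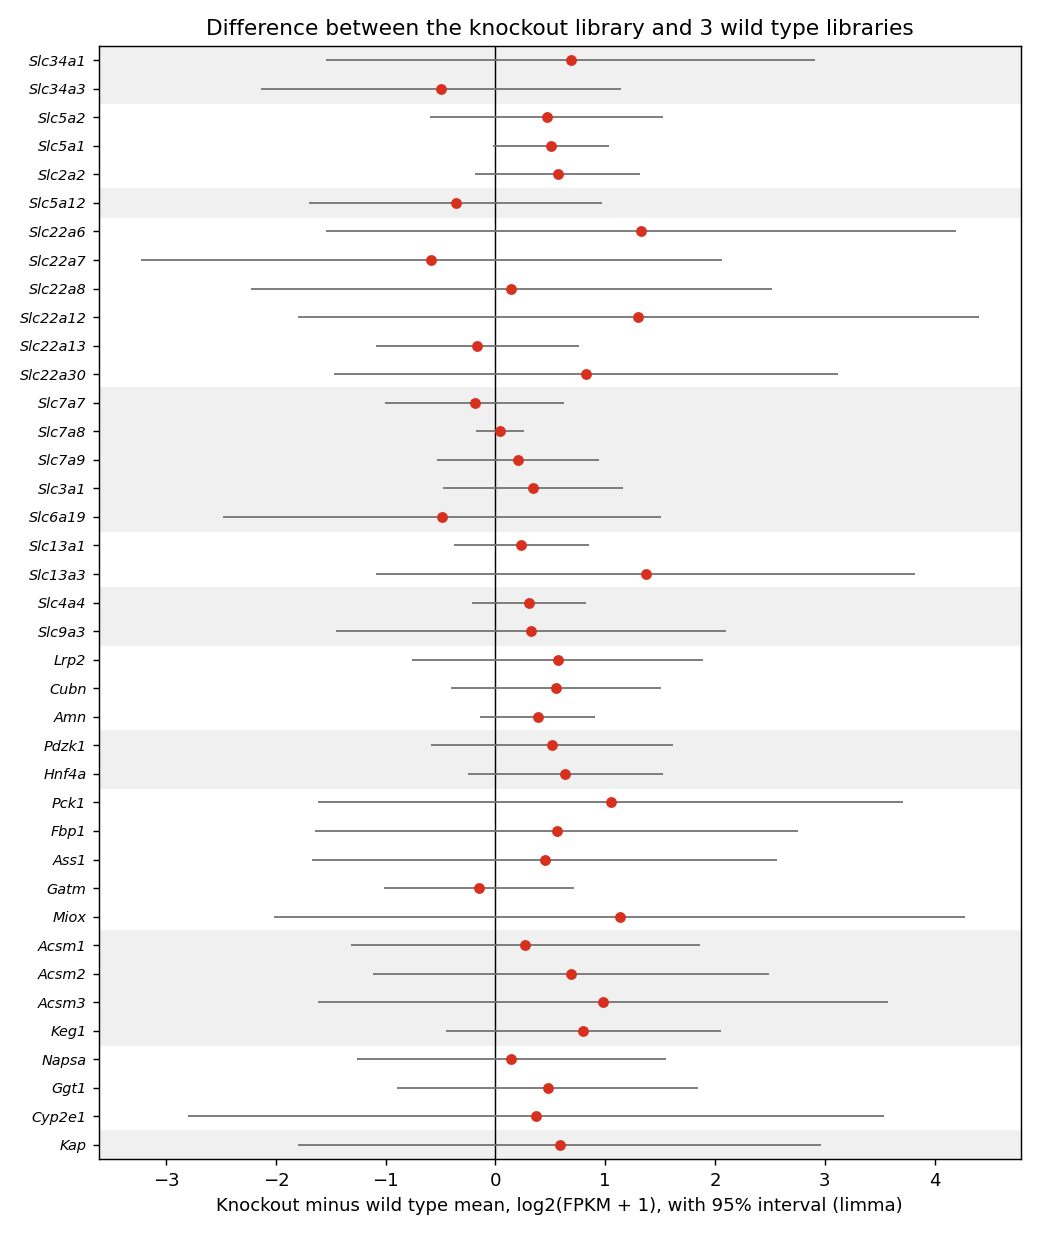
Knockout value minus wild type mean in log2(FPKM + 1) for each member (points), with the 95% interval from limma (lines) and shading by role. Every interval includes 0, from the narrow one of Slc7a8 (-0.18 to 0.26) to wide ones such as that of Cyp2e1 (-2.80 to 3.54).

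The members differed in where the knockout library stood. For 11 members it lay above wild type replicate 1 and below both other wild type libraries, a place held by 3.54% of tested genes. This place exists only where replicate 1 is the lowest wild type library, as for all 39 members but 24.2% of tested genes. The 2 shares are therefore not on the same footing. These were Slc34a3, Slc5a12, Slc22a7, Slc22a8, Slc22a13, Slc7a7, Slc6a19, Slc9a3, Gatm, Napsa and Cyp2e1, grouped here by their values, so no test was made. Their knockout value was 0.18 to 0.82 times that of wild type replicate 3. For the other 28 members that ratio was 0.69 to 1.33. The spread between wild type libraries, as the SD of log2(FPKM + 1), had a median of 0.65 over the members and 0.11 over tested genes, and 38 of 39 members lay above the latter, Slc7a8 being the exception. The median SE of a member's difference was accordingly 0.52, against 0.13 over all tested genes.

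Other proximal tubule genes were listed by their known role, with earlier results of these data known, so they are no independent check of the members. Of 90 listed, 89 were tested, 0 passed limma's test at the adjusted threshold, and 10 had an unadjusted limma p under 0.05 (background 10.8%). Their median difference was 0.45, with 51 above and 4 below every wild type library (28.0% and 31.2% of tested genes). Wild type replicate 1 was lowest for 75 and replicate 3 highest for 76 of the 89 (24.2% and 22.3% of tested genes). Abcc2, the apical exporter of conjugated anions, averaged 12.6 ± 3.19 FPKM in wild type (SD, n = 3) and stood at 27.2 FPKM in the knockout library (difference 1.08, SE 0.30, adjusted p = 0.363). Cyp4a14, a fatty acid hydroxylase, was at 1.98, 12.3 and 7.51 FPKM in wild type and at 31.4 FPKM in the knockout library (adjusted p = 0.488). Cyp4a10 of the same family was at 29.0 against 13.9 ± 9.36 FPKM (SD, n = 3), and both have near copies that may share reads. Akr1c21, a hydroxysteroid dehydrogenase, was at 101 against 48.5 ± 31.5 FPKM, and Cyp24a1, which inactivates vitamin D, was at 20.8 against 10.7 ± 4.22 FPKM. On the lower side, the peptidases Dpep1 (11.8 against 15.5 ± 2.48 FPKM) and Mme (12.8 against 13.8 ± 0.84 FPKM) and the serpin Serpina1f (14.1 against 15.6 ± 2.51 FPKM) lay just below every wild type library. The regulator Ppara, a nuclear receptor that drives fatty acid oxidation genes, was at 3.61 against 3.14 ± 1.39 FPKM (adjusted p = 0.880).

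Genes known to respond to androgen, of which 4 are members and 5 stand among the other proximal tubule genes, had the widest wild type spread of the lists. For these 11 genes the median of wild type replicate 3 minus replicate 1 was 2.10, against 1.25 for the members and 0.83 for the other proximal tubule genes. Fatty acid oxidation genes of the kidney, 15 in number, had a median of 0.17 on that measure. In the knockout library 12 of them were above every wild type library (28.0% of tested genes), and 0 passed the adjusted threshold. Markers of other segments were measured the same way. The loop of Henle and distal convoluted tubule genes had a median of 0.27 on that measure over 19 genes, and the collecting duct genes one of -0.10 over 17. Podocyte genes, 9 in number, had a median of -0.40. No test of the difference between lists was made.

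**Figure D4:**
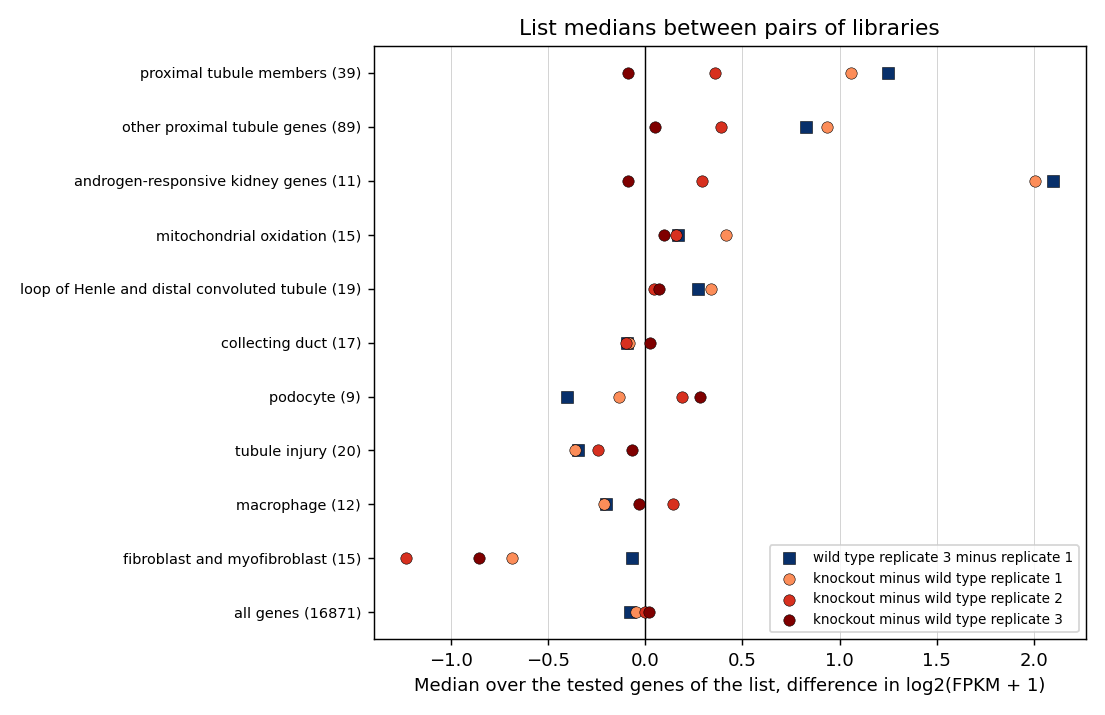
Median difference in log2(FPKM + 1) between pairs of libraries for each list (tested genes in parentheses). Squares compare wild type replicate 3 with replicate 1 and circles the knockout library with each wild type library; the members' square stands at 1.25, that of all genes at -0.08, and the circles of the fibroblast list lie left of 0.

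Markers of injury and of other cells were measured in the same libraries. The 20 injury genes had a median of -0.35 for wild type replicate 3 minus replicate 1. In replicate 1, 0 of them were lowest (24.2% of tested genes). Their summed FPKM was 9519, 8744 and 7777 in wild type replicates 1, 2 and 3 and 8743 in the knockout library. Against wild type, 11 of the 20 lay below and 2 above every library (31.2% and 28.0% of tested genes), with a median difference of -0.25. By limma 0 of them passed the adjusted threshold and 4 had an unadjusted p under 0.05 (10.8% of tested genes). Havcr1 (KIM-1), a marker of injured proximal tubule cells, was at 189, 206 and 85.6 FPKM in wild type and at 261 FPKM in the knockout library. Lcn2, a marker of injured distal cells, was at 178, 170 and 169 FPKM in wild type and at 84.4 FPKM in the knockout library (adjusted p = 0.0514). Of 15 fibroblast and myofibroblast genes, 13 lay below every wild type library (31.2% of tested genes did) and 3, Acta2, Col1a1 and Fn1, were called lower (0.0830%), with a summed FPKM of 469 in the knockout library and 964 to 1170 in wild type. These 3, named after their values were seen, were all lost when any 1 wild type library or the immunoglobulin genes were left out. Acta2 alone of the list was called with a pseudocount of 0.1 FPKM or with no filter. Of 12 tested B and plasma cell genes, 11 lay above every wild type library (28.0% of tested genes) and 8 were called higher (0.640%). The list had a summed FPKM of 5726 in the knockout library and 166 to 274 in wild type. Those 8 calls numbered 1 to 2 without 1 wild type library, and 2 to 3 with no filter, a pseudocount of 0.1 FPKM or immunoglobulin genes left out. Leaving out immunoglobulin genes removes Igha, Ighm and Igkc from the B and plasma cell list by construction, so 9 genes were tested there. The 12 macrophage genes summed to 1286 FPKM in the knockout library and 909 to 1392 in wild type, and the podocyte genes to 156 and 127 to 185 FPKM. The collecting duct genes summed to 190.1 FPKM in the knockout library and 174 to 197 in wild type. No marker of these lists was listed at 0 in any library, other than the plasma cell gene Tnfrsf17. The part of these cells in the members' levels was not tested.

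In the authors' deposited table, 0 of the 39 members are marked significant, where 263 genes are, and the smallest p and q values of a member are 0.02 and 0.37. The authors' deposited table gives the members fold changes from 0.36, for Slc22a7, to 2.25, for Slc13a3.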

How the data were processed

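Messenger RNA was sequenced from obstructed mouse kidneys after Trizol extraction and oligo(dT) purification, per the labels' protocols. The submitters' processing notes name cutadapt 1.9, FastQC, HISAT2 2.0.4 and build mm10, without roles. For the program behind the FPKM values, its annotation and the authors' test, nothing is given in the sources used here. Per its header, the deposited table holds FPKM values rounded to 2 decimals, the authors' fold change as a ratio, its log2, and the authors' p-values and q-values.

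Groups and replicate numbers came from sample titles. Values were analysed as log2(FPKM + 1), which understates the change of low genes. Genes averaging 0.5 FPKM or more across the 4 libraries (16871) entered a moderated linear model in limma 3.58.1 (R 4.3.3, with a mean-variance trend). Its two-sided p-values were adjusted over all of these genes by Benjamini-Hochberg, with a threshold of 0.05. The comparison was 1 library against 3, so the spread came from wild type alone (2 residual and 2.32 prior degrees of freedom), and the knockout library was assumed to vary like it. The fit was checked on simulated data. Depth is unknown, so no counting intervals were computed.

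Gene positions came from GENCODE M21 (mm10), where all 39 identifiers matched, and promoters from RefSeq. The members and the lists were chosen with earlier results of these data known. The rule for named genes was all members, Cd248, Havcr1, Lcn2, Ppara, sex-linked genes and, of the other proximal tubule genes, those past the test and up to 5 with the largest differences in each direction (mean of at least 5 FPKM, outside the wild type range). Some genes of that rule are not reported here. The motifs were chosen after the member values were seen. Alternatives covered the pseudocount, the filter, the scaling, the variance trend and each wild type library left out.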

Additional observations from a re-analysis of the deposited data

How the results depend on the processing

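No member passed limma's threshold under any of the 10 alternatives (smallest adjusted p 0.390), and 379 of 390 recomputed member differences kept their direction. Differences below are on the log2(FPKM + 1) scale. Over all genes, 108 were called higher and 14 lower. With a pseudocount of 0.1 FPKM these counts were 33 and 6, with no filter on low values 201 and 4, and at an equal FPKM total 24 were called lower. With immunoglobulin genes left out they were 5 and 1, a setting that removes 98 of the 108 genes called higher. Leaving out wild type replicate 1, 2 or 3 gave 51, 72 and 41 genes called higher and 2, 1 and 4 called lower, from fewer libraries. Apart from those 2 constructions, the cause was not tested.

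At an equal FPKM total, 2 members, Slc7a7 and Slc7a8, lay below every wild type library. With 1 wild type library left out, the members above all the others numbered 16 to 28 and those below 0 to 11. The difference of Slc7a8 was -0.085 at an equal total and -0.0050 with immunoglobulin genes left out. Another 9 members changed sign with 1 wild type library left out. Their differences ranged from -0.49 to 0.55 for Slc22a8, from -0.37 to 0.0045 for Slc7a7, from -0.15 to 0.61 for Slc9a3, from -0.059 to 0.93 for Ass1, from -0.33 to 0.061 for Gatm, from -0.12 to 0.62 for Acsm1, from -0.23 to 0.37 for Napsa, from -0.47 to 0.96 for Cyp2e1 and from -0.011 to 1.04 for Kap. In 7 of these 9 the change came without wild type replicate 1, and the 2 others, Slc7a7 and Gatm, changed without replicate 3. No paired analysis was possible because the knockout and wild type columns share only replicate number 1. Read depth is unknown, so no limit from counting could be set.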
